A study of Penicillium oxalicum with 12 samples.

Results

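Transcript levels of 4 genes of the filamentous fungus Penicillium oxalicum are described here, out of 9931 genes in the deposited table. They were chosen by locus identifier. PDE_09491 is described as a naphtho-gamma-pyrone polyketide synthase. PDE_09492, the next locus number, and PDE_09453 and PDE_07612 are described as iron transport multicopper oxidases, a description carried by 8 genes in all. The choice was made with the difference between the laeA deletion strain and the wild type already known, so that contrast is described without a test.

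RNA came from mycelia of 4 strains with 3 libraries each. WT is the wild type 114-2, and DlaeA carries a deletion of laeA. In H2BK123A and H2BK131A an alanine stands in place of the lysine at position 123 or 131 of histone H2B. All strains were pre-cultured from conidia for 22 h at 30 °C and harvested 24 h after the washed mycelia were moved to Mandel's medium, with 2% glucose throughout. How the mutant strains were built, and how many transformants stand behind each, is not given in the sources used here. Separate cultures are not stated for the 3 libraries, so a p-value here covers the spread among libraries alone, and that spread may be technical.

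Nonreducing polyketide synthases of this kind build aromatic naphthopyrones from acetate units. In Aspergillus nidulans such an enzyme, WA, makes the yellow precursor of the green spore pigment, and a multicopper oxidase of the laccase type then oxidises it. Multicopper oxidases form a broad family that uses copper to oxidise phenols or metal ions. The yeast member Fet3 oxidises iron at the cell surface and hands it to the permease Ftr1, whereas Abr1 of Aspergillus fumigatus belongs to a spore melanin cluster. The description given to PDE_09492, PDE_09453 and PDE_07612 does not tell these roles apart. LaeA is a putative methyltransferase that in related fungi controls many secondary metabolite genes and takes part in development.

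The values are named FPKM in the table, a level corrected for transcript length and for library size. The labelled protocol instead yields short tags, whose number would not grow with transcript length, and the sources used here do not settle this conflict. Levels and ranks compared between genes carry that limit. The median FPKM of a library was 20.5 to 25.1, and FPKM sums were 709483.7 to 764698.6 per library. PDE_00584, recalled as laeA from published work, was at 33.9 to 37.9 in WT and at 0 to 0.11 in DlaeA. A codon change in H2B is not visible in such values. On the log2(FPKM + 1) scale the typical gene had an SD of 0.223 among the WT libraries and of 0.111 to 0.124 in the mutants (medians over genes). The closest pair of libraries was DlaeA 2 and DlaeA 3, and they were counted separately because their values were not identical (237 of 9931 genes had the same value, against 141 to 258 in other pairs of a strain).

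The polyketide synthase PDE_09491 was high in 2 strains, DlaeA and H2BK131A, and low in the other two. Its FPKM was 0.84, 2.73 and 4.44 in WT and 47.6, 59.3 and 63.7 in DlaeA. In H2BK123A it was 1.79, 2.69 and 2.61, and in H2BK131A 109, 153 and 128. Every H2BK131A library was therefore above every DlaeA library, and these were above all WT and H2BK123A libraries, whose ranges overlapped. In H2BK131A the gene ranked 1031 of 9931 by mean FPKM, and in WT it ranked 8298.

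**Figure D1:**
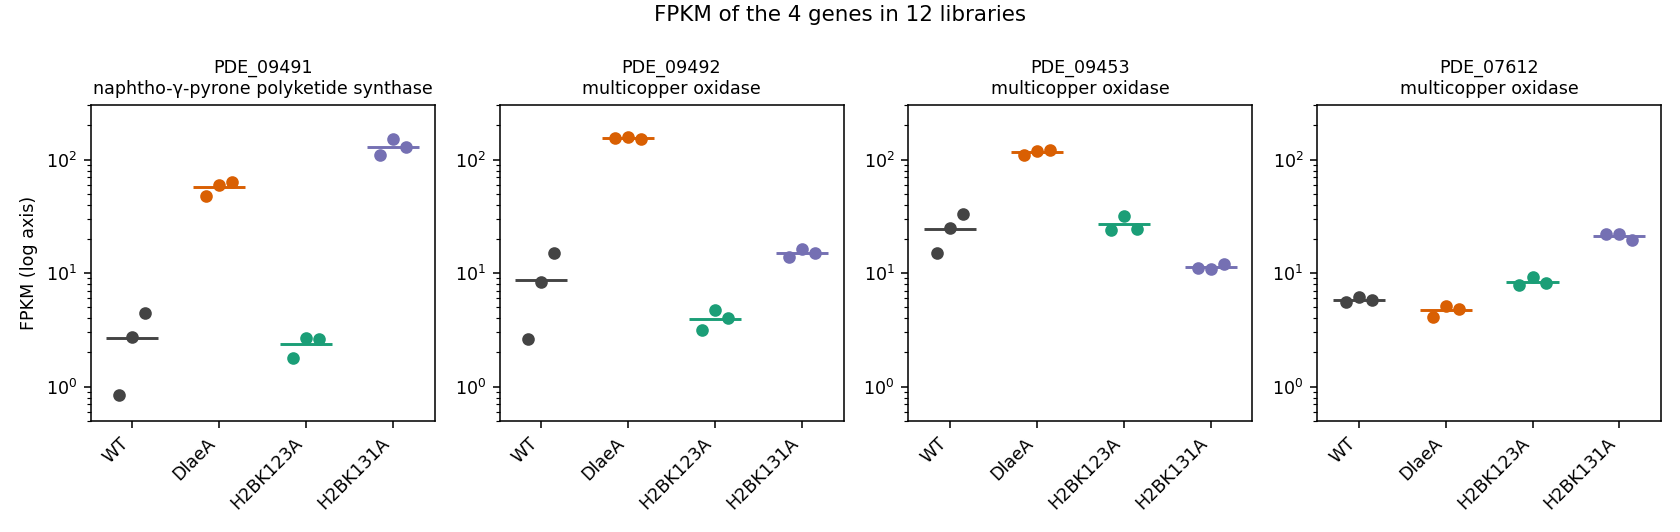
FPKM on a log axis for the polyketide synthase PDE_09491 and the multicopper oxidases PDE_09492, PDE_09453 and PDE_07612, with 3 libraries per strain as points and the mean as a line. PDE_09491 is high in DlaeA and H2BK131A, PDE_09492 and PDE_09453 stand highest in DlaeA, and PDE_07612 stands highest in H2BK131A.

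The mean differences between the H2B mutants used no library of the contrast by which the genes were chosen. Their SE and adjusted p came from the fit of all 12 libraries, so the spread within WT and DlaeA entered them. The genes were chosen with earlier results of these data known, so independence of this comparison from the choice is not established. With only the 2 H2B mutants in the fit, all 4 genes were still called, each in the direction given below. PDE_09491 averaged 130.0 ± 22.4 in H2BK131A and 2.36 ± 0.50 in H2BK123A (SD, n = 3), a ratio of 55.0. Its log2 difference was 5.28 ± 0.31 (SE, limma, Benjamini-Hochberg adjusted p = 6.22e-08 over all 9431 tested genes), and 16 genes had a larger rise. PDE_09492 rose too, but far less, from 3.95 ± 0.80 to 15.04 ± 1.24 (1.71 ± 0.39, adjusted p = 0.00199). PDE_07612 rose from 8.39 ± 0.67 to 21.2 ± 1.59 (1.24 ± 0.11, adjusted p = 1.16e-06). PDE_09453 fell from 27.0 ± 4.41 to 11.3 ± 0.61 (-1.17 ± 0.22, adjusted p = 0.000486). All 4 genes were thus called, 3 higher and 1 lower, where 68.7% of all tested genes were called (32.9% higher and 35.8% lower). None of the 4 had overlapping libraries, as held for 78.5% of tested genes. Calls of at least 2-fold, which all 4 were, made up 15.2% of tested genes upward and 16% downward.

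Against WT the polyketide synthase was also higher in H2BK131A, by a log2 difference of 5.28 ± 0.31 (limma, adjusted p = 3.88e-08), and 54 genes had a larger rise. These tests use the same WT libraries as the contrast behind the choice of genes, so they are not independent of it. PDE_07612 rose from 5.80 ± 0.28 to 21.2 ± 1.59 (1.71 ± 0.11, adjusted p = 6.66e-08) and PDE_09453 fell from 24.4 ± 9.11 to 11.3 ± 0.61 (-0.98 ± 0.22, adjusted p = 0.00168). PDE_09492 was called higher (0.98 ± 0.39, adjusted p = 0.0396), yet its libraries overlapped, at 2.61, 8.32 and 14.96 in WT and 13.9, 16.3 and 14.9 in H2BK131A. That call was lost under 13 of 23 alternative settings, among them median ratio scaling (0.83, adjusted p = 0.086) and the fit without WT 1 (0.39, adjusted p = 0.103). All 4 genes were called where 70.8% of tested genes were (40.6% higher and 30.2% lower), and 3 of the 4 had no overlap, as held for 70.5%. The median of all tested genes lay at 0.13.

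In H2BK123A only PDE_07612 of these genes was called against WT, where 46.6% of tested genes were (33.5% higher). Of those calls 71.8% were higher, against 49.5% with median ratio and 51.2% with quantile scaling. It was at 7.87, 9.14 and 8.15 against 5.54, 6.10 and 5.77 in WT, without overlap, as held for 52.7% of tested genes (0.46 ± 0.11, limma, adjusted p = 0.0047). With the median of all genes at 0.18 this is a small difference, and with quantile scaling it was not called (0.24, adjusted p = 0.0778). The difference for PDE_09491 was -0.00, with a 95% interval from -0.68 to 0.68 (adjusted p = 0.997). That for PDE_09492 was -0.73, from -1.58 to 0.12 (adjusted p = 0.144), and without WT 1 it was called lower (-1.31, adjusted p = 0.000563). For PDE_09453 it was 0.20, from -0.28 to 0.67 (adjusted p = 0.488). Differences of up to these sizes remain possible.

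In DlaeA the multicopper oxidase genes parted. PDE_09492 was at 154, 157 and 151 against 2.61, 8.32 and 14.96 in WT, and its mean was 17.9 times that of WT. PDE_09453 was at 109, 119 and 122 against 15, 24.9 and 33.2, a ratio of 4.78, while PDE_07612 was at 4.13, 5.10 and 4.83 against 5.54, 6.10 and 5.77, a ratio of 0.808. The ratio for PDE_09491 was 21.3. The libraries of DlaeA and WT did not overlap for any of the 4 genes, a state shared by 70.3% of tested genes. Because the genes were chosen with this contrast known, nothing is read from it.

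The mean levels give a different order of strains for each gene. For PDE_09492 the order from the top was DlaeA (154), H2BK131A (15.04), WT (8.63) and H2BK123A (3.95), with WT overlapping both of its neighbours. For PDE_09453 it was DlaeA (117), H2BK123A (27.0), WT (24.4) and H2BK131A (11.3), with H2BK123A and WT overlapping. For PDE_07612 it was H2BK131A (21.2), H2BK123A (8.39), WT (5.80) and DlaeA (4.69), with no overlap between neighbours. The H2BK131A mean of PDE_09492 was 0.0976 of its DlaeA mean, and for PDE_09453 the value was 0.0969. For PDE_09491 and PDE_07612 the H2BK131A mean was 2.29 and 4.53 times the DlaeA mean.

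The ratio of the polyketide synthase to the adjacent oxidase was above 1 in the H2BK131A libraries and below 1 in the H2BK123A libraries. The ratio of PDE_09491 to PDE_09492 was 0.322, 0.328 and 0.297 in WT and 0.308, 0.377 and 0.422 in DlaeA, the strains of the contrast behind the choice of genes, and nothing is read from those values. In H2BK123A it was 0.574, 0.570 and 0.649. In H2BK131A it was 7.83, 9.38 and 8.59. An FPKM ratio between genes depends on the transcript lengths the authors used, and no source used here gives them.

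**Figure D2:**
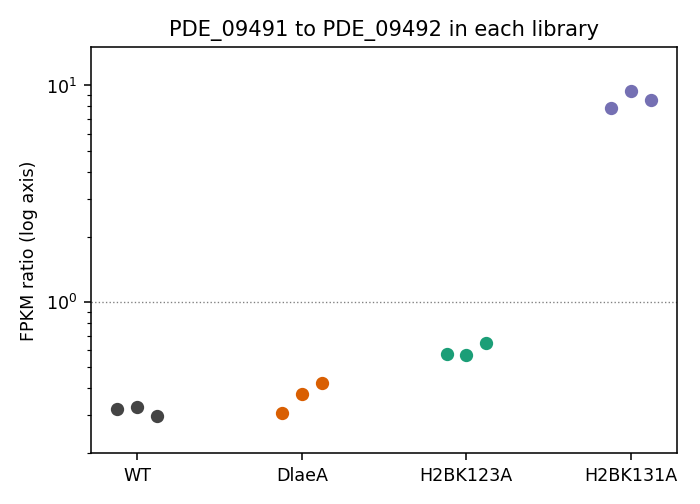
Ratio of the FPKM of PDE_09491 to that of PDE_09492 in each library, on a log axis, with 3 libraries per strain and a dotted line at 1. WT, DlaeA and H2BK123A lie between 0.297 and 0.649, and H2BK131A lies between 7.83 and 9.38.

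Around PDE_09491 and PDE_09492 the loci numbered next on either side differed less between strains. PDE_09490 was at 21.7 ± 1.00 in WT, 27.9 ± 2.41 in DlaeA, 18.1 ± 1.32 in H2BK123A and 19.6 ± 1.53 in H2BK131A. PDE_09493 was at 2.04 ± 0.39, 3.71 ± 0.32, 2.21 ± 0.11 and 2.48 ± 0.25 in the same order. Both were highest in DlaeA and called higher there than in WT (0.35, limma, adjusted p = 0.00856, and 0.64, adjusted p = 0.000793). For PDE_09490 that call was lost with median ratio (0.08) and quantile scaling (0.16). Neither locus was called between the H2B mutants (limma, adjusted p = 0.343 and 0.433). Locus numbers were used for position, since no genome of this strain was used here. Of the 19 other genes within 10 locus numbers, 12 rose and 2 fell in H2BK131A against H2BK123A (73.7% called, against 68.7% of all genes). Among all tested genes 32.9% rose and 35.8% fell. The median difference of these neighbours was 0.51 where all genes had -0.05.

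7 of these 19 neighbours were called with a rise of at least 2-fold in H2BK131A against H2BK123A, as were 15.2% of all tested genes. PDE_09496, a gene without a description, was at 437 ± 40.1 in H2BK131A against 32.7 ± 5.24 in H2BK123A (3.71 ± 0.22, limma, adjusted p = 6.39e-08) and at 21.8 ± 4.66 in DlaeA. PDE_09481, also without a description, rose by 2.23 on the log2 scale between the H2B mutants. PDE_09489, described as a dimethylaniline monooxygenase, was at 17.1 ± 0.39 in H2BK131A, 4.66 ± 0.51 in H2BK123A and 12.3 ± 1.94 in DlaeA (1.68 ± 0.15, adjusted p = 1.47e-06). PDE_09484, an RNA helicase of the splicing machinery (1.29), PDE_09487, an NAD+ diphosphatase (1.71), PDE_09497, a 1-aminocyclopropane-1-carboxylate deaminase (1.04), and PDE_09500, a dTMP kinase (1.02), rose as well.

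**Figure D3:**
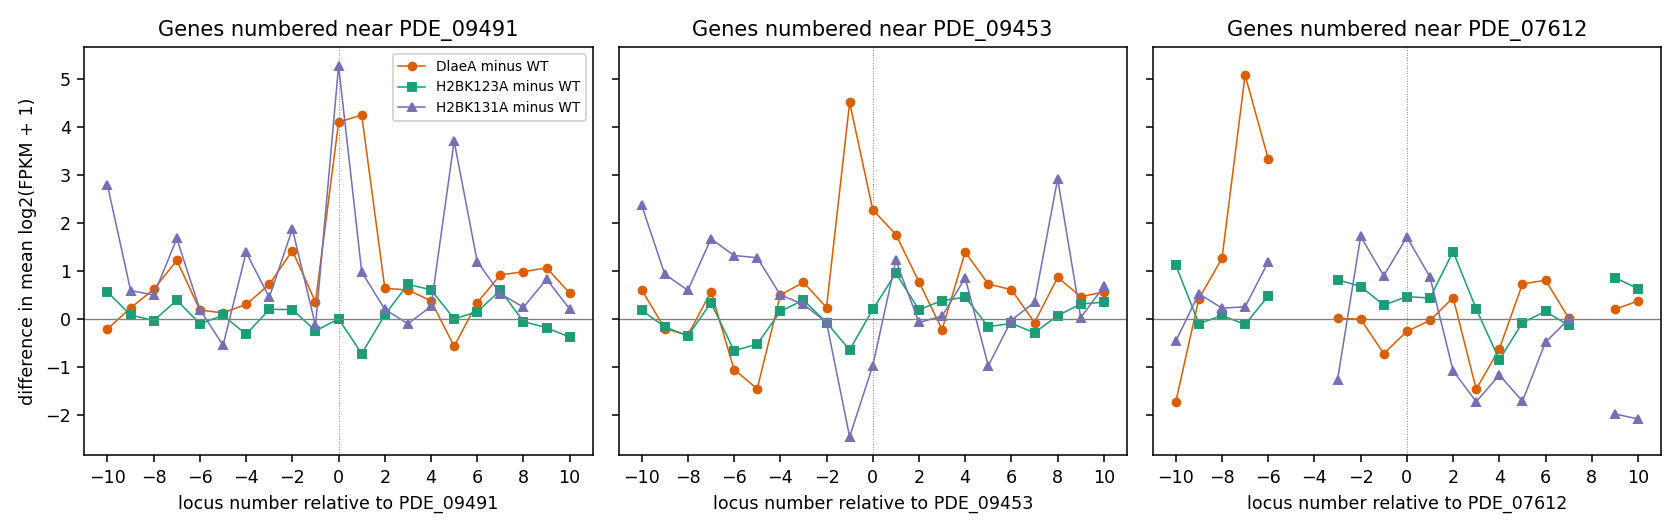
Differences of each mutant from WT in mean log2(FPKM + 1) for genes within 10 locus numbers of PDE_09491, PDE_09453 and PDE_07612, with a gap where a gene was too low to be tested. In DlaeA PDE_09491 and PDE_09492 (number 1) are at 4.10 and 4.25, PDE_09452 at 4.52 and PDE_07605 at 5.09, while in H2BK131A PDE_09491 is at 5.28 and PDE_09492 at 0.98.

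The multicopper oxidase PDE_09453 shared its pattern with the locus numbered just before it. PDE_09452, without a description, was at 15.8, 28.2 and 58.9 in WT and at 707, 698 and 710.2 in DlaeA. It was at 14.0, 26.7 and 17.3 in H2BK123A and at 5.03, 4.17 and 4.62 in H2BK131A. Between the H2B mutants it fell by 1.81 ± 0.36 on the log2 scale (limma, adjusted p = 0.000751), as PDE_09453 did by 1.17. On the other side, PDE_09454, described as a cellobiose dehydrogenase, was at 14.7 ± 1.03 in DlaeA and 3.79 ± 1.53 in WT, but between the H2B mutants it was not called (0.27 ± 0.19, adjusted p = 0.224).

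Other genes numbered near PDE_09453 went the opposite way in H2BK131A. PDE_09461, a GTP cyclohydrolase I of pterin synthesis, rose by 2.85 against H2BK123A, the ribosomal protein gene PDE_09443 by 2.19, and PDE_09448, described as the regulator CAT8, by 1.80. PDE_09447 (1.99), PDE_09446 (1.33) and PDE_09444 (1.10), without a description, rose as well. Of the 20 neighbours 10 rose and 4 fell, 70% in all against 68.7% of all tested genes.

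PDE_07612 lies beside PDE_07611, described as the iron permease FTR1, the kind of protein that works with a Fet3 oxidase in yeast. PDE_07611 was at 12.4, 13.3 and 15.4 in WT and at 5.97, 9.30 and 8.67 in DlaeA. It was at 16.3, 17.8 and 16.6 in H2BK123A and at 27.9, 25.01 and 26.1 in H2BK131A. The strains thus had the same order as for PDE_07612, without overlap. Between the H2B mutants the permease gene rose by 0.61 ± 0.14 (limma, adjusted p = 0.0023) and the oxidase gene by 1.24 ± 0.11. The ratio of PDE_07612 to PDE_07611 was 0.375 to 0.459 in WT, 0.482 to 0.515 in H2BK123A, 0.548 to 0.692 in DlaeA and 0.743 to 0.881 in H2BK131A.

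PDE_07610, described as a multidrug transporter of the DHA2 family, rose with them, from 8.33 ± 0.60 in H2BK123A to 18.4 ± 2.18 in H2BK131A (1.05 ± 0.17, limma, adjusted p = 0.000182). It was at 4.95 ± 1.43 in WT and 4.86 ± 0.85 in DlaeA. The low gene PDE_07613 was at 1.26 ± 0.35 in H2BK131A and 0.687 ± 0.44 in H2BK123A (0.44, adjusted p = 0.0511). Other genes within 10 locus numbers fell by at least 2-fold in H2BK131A against H2BK123A, on either side of PDE_07612. These were PDE_07621 (-2.85), PDE_07622 (-2.72), PDE_07614 (-2.49), PDE_07609 (-2.09), PDE_07615 (-1.94), the signal recognition particle receptor gene PDE_07617 (-1.64) and the Golgi apyrase gene PDE_07602 (-1.58). Among 17 tested neighbours 4 rose and 8 fell, 70.6% in all against 68.7% of all tested genes. PDE_07605, without a description, was at 0.377 ± 0.28 in WT, 51.2 ± 26.4 in DlaeA, 0.253 in H2BK123A and 0.63 in H2BK131A. PDE_07606, without a description, rose by 0.71 and stood highest in DlaeA, at 69.3 ± 25.2 against 5.61 ± 0.57 in WT. PDE_07616 was not called between the H2B mutants (-0.32, adjusted p = 0.289) and was lower in H2BK131A than in WT (-1.17, adjusted p = 0.00144).

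The other genes described as iron transport multicopper oxidases were mostly lowest in H2BK131A. PDE_02128, the highest of the 8 in WT, was at 79.2, 175 and 312 there and at 229, 223 and 215 in DlaeA. It was at 80.9, 121 and 91.6 in H2BK123A and at 4.50, 3.15 and 3.34 in H2BK131A, so it fell by 4.39 ± 0.36 between the H2B mutants (limma, adjusted p = 7.95e-07). PDE_01136 was at 58.1, 61.7 and 61.2 in H2BK123A and at 13.7, 8.61 and 8.53 in H2BK131A (-2.47 ± 0.17, adjusted p = 2.23e-07), and PDE_00498 fell by 0.68. PDE_00453, at 1.46 ± 0.40 in H2BK131A and 0.387 ± 0.19 in H2BK123A, rose by 0.82. PDE_06090 averaged at most 0.163 in any strain and was not tested. In H2BK131A against H2BK123A all 7 tested genes of this description were called, 3 higher and 4 lower, where 68.7% of all tested genes were called (32.9% higher and 35.8% lower). PDE_02128, PDE_01136, PDE_00498 and PDE_00453 were not called in H2BK123A against WT (limma, adjusted p from 0.111 to 0.778) or in DlaeA against WT (adjusted p from 0.296 to 0.866), though median ratio and quantile scaling each gave 1 lower call among them in H2BK123A.

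**Figure D4:**
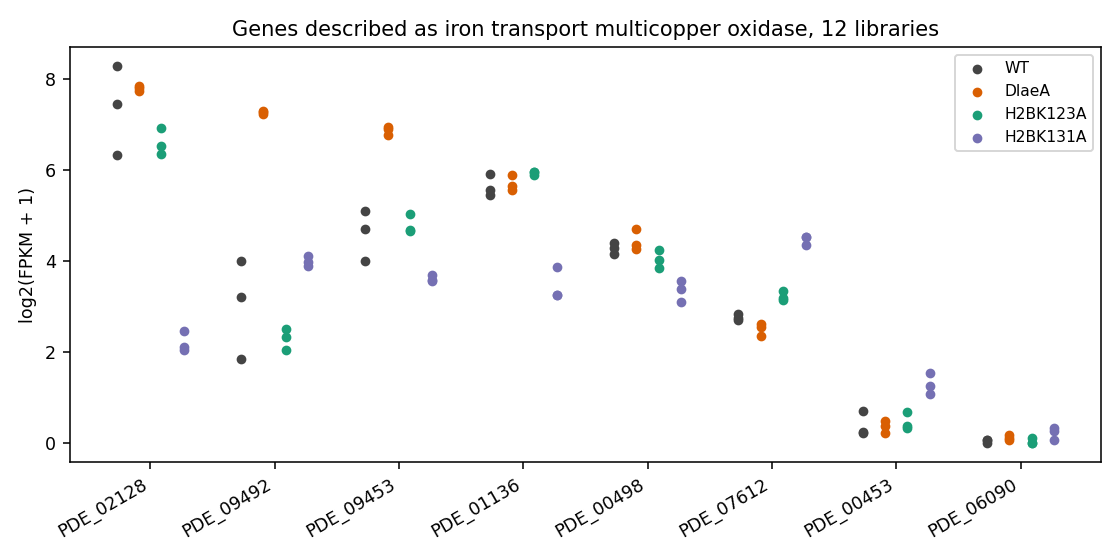
log2(FPKM + 1) in all 12 libraries for the 8 genes described as iron transport multicopper oxidases, 3 points per strain. PDE_02128, PDE_09453, PDE_01136 and PDE_00498 are lowest in H2BK131A, PDE_07612 and PDE_00453 are highest there, and PDE_09492 and PDE_09453 are highest in DlaeA.

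Genes for iron handling did not move as a block. Of 11 reductive iron uptake genes, which encode surface reductases and the permease, 3 rose and 5 fell in H2BK131A against H2BK123A (68.7% of all genes were called), with a median of 0.02 where all genes had -0.05. With quantile scaling 4 rose and 3 fell. The ferric-chelate reductase PDE_03439 fell from 826 ± 17.7 to 402 ± 81.3 (-1.06 ± 0.16, limma, adjusted p = 0.000107) and PDE_06091 fell by 1.22. PDE_08755 was not called there (0.07, adjusted p = 0.745) and was at 1538 ± 188 in DlaeA against 184 ± 23.5 in WT.

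Of 7 siderophore genes, which serve the synthesis and uptake of secreted iron chelators, 5 rose and 2 fell between the H2B mutants, and the list's median was 2.41. Of all tested genes 32.9% rose and 35.8% fell, with a median of -0.05. The counts were the same with median ratio and quantile scaling. PDE_04073, described as the L-ornithine N5-oxygenase that starts siderophore synthesis and named after its values were seen, was at 4.56 to 6.60 in H2BK123A and at 72.9 to 82.6 in H2BK131A (3.56 ± 0.18, limma, adjusted p = 2.28e-08). Of the siderophore-iron symporters PDE_01177 (1.41) and PDE_04184 (2.41) rose, while PDE_06096, the most abundant, fell from 2408 ± 199.7 to 921 ± 154 (-1.40 ± 0.20, adjusted p = 5.72e-05).

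Of 9 copper handling genes, 1 rose and 7 fell in H2BK131A against H2BK123A, with a median of -0.97, where 32.9% of all tested genes rose and 35.8% fell with a median of -0.05. For this list 1 rose and 6 fell with median ratio and with quantile scaling. The copper transporter PDE_08756 fell from 3901 ± 47.1 to 766 ± 243 (-2.39 ± 0.26, limma, adjusted p = 6.96e-06), and PDE_05901 (-1.30) and PDE_05328 (-0.97) fell with it. Against WT 2 rose and 6 fell, where 40.6% of all tested genes rose and 30.2% fell.

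**Figure D5:**
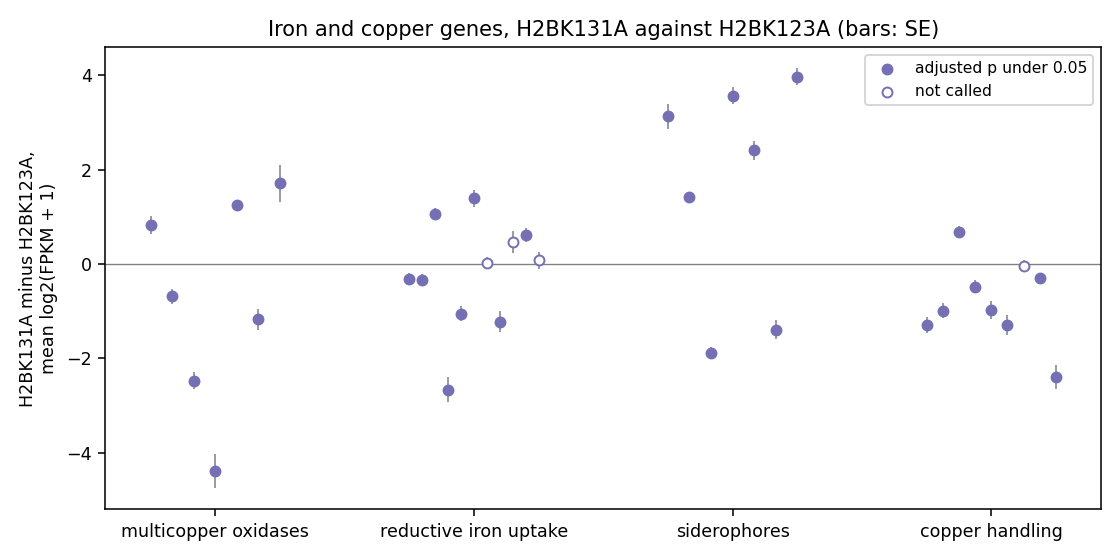
Differences in mean log2(FPKM + 1) between H2BK131A and H2BK123A for each tested gene of the multicopper oxidase, reductive iron uptake, siderophore and copper handling lists, with SE bars and filled points for adjusted p under 0.05. The multicopper oxidases range from -4.39 (PDE_02128) to 1.71 (PDE_09492), 5 of 7 siderophore genes lie above 0, and 7 of 9 copper genes are called below it.

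Among polyketide and peptide backbone genes, the enzymes that assemble secondary metabolites, PDE_09491 had the highest mean FPKM in H2BK131A of all 12. The other 11 had 4 up and 3 down between the H2B mutants (63.6% called against 68.7% of all tested genes, median 0.16). PDE_04441, described as a zearalenone synthase, rose from 2.16 ± 0.14 to 17.7 ± 2.65 (2.55 ± 0.13, limma, adjusted p = 2.07e-08) and PDE_01235, described as an aspyridone synthetase, from 1.22 ± 0.07 to 9.16 ± 2.91 (2.15 ± 0.18, adjusted p = 1.01e-06). PDE_03455, described as an emericellamide synthase, averaged 59.4 ± 7.67 in DlaeA and 15.2 ± 0.15 in H2BK131A. Its rise over H2BK123A (0.61, adjusted p = 0.043) was lost under 9 of 23 alternatives, with adjusted p from 0.054 to 0.115 in these. PDE_09237, described as a monodictyphenone synthase, went the other way from PDE_09491, with 0.230 ± 0.22 in DlaeA and 0.95 ± 0.15 in H2BK131A against 549 ± 396 in WT and 313 ± 37.9 in H2BK123A.

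The conidiation regulator BrlA (PDE_00087), which starts spore formation in related fungi, separated the genes further. It was at 5.67, 19.7 and 28.9 in WT, 412, 449 and 444 in DlaeA, 8.95, 18.2 and 13.6 in H2BK123A and 1.90, 2.06 and 2.06 in H2BK131A. PDE_09453 was likewise highest in DlaeA and lowest in H2BK131A, with WT and H2BK123A overlapping between them. PDE_09491 had another order, being highest in H2BK131A, where BrlA was lowest, and next highest in DlaeA, where BrlA was highest. PDE_09492 was highest in DlaeA and next highest in H2BK131A. PDE_07612 was highest in H2BK131A and lowest in DlaeA. In WT, PDE_09491, PDE_09492, PDE_09453 and BrlA were all lowest in WT 1 and highest in WT 3. PDE_02128 and PDE_09452 had the same order of WT libraries. The share of all genes with that order was not counted, so nothing is read from it. FlbD (PDE_03008), a further regulator of conidiation, was at 371 ± 5.19 in DlaeA, 100.1 ± 37.3 in WT, 66.8 ± 6.69 in H2BK123A and 5.29 ± 1.31 in H2BK131A. The spore wall gene DIT1 (PDE_01188) had another order. It averaged 182 ± 186 in WT, 0.847 ± 0.21 in DlaeA, 71.2 ± 47.8 in H2BK123A and 350 ± 230 in H2BK131A. It was not called between the H2B mutants (2.24 ± 1.21, limma, adjusted p = 0.12). A low gene, PDE_00079, is also described as BrlA. It averaged 0.387 in WT, 2.14 in DlaeA, 0.843 in H2BK123A and 0.44 in H2BK131A. Between the H2B mutants it was not called either (-0.36, adjusted p = 0.184). Of the 4 conidiation genes, PDE_00087 and FlbD fell between the H2B mutants. Fewer sporing cells and less RNA per cell cannot be told apart in bulk mycelia, and the part of sporulation in these results was not tested.

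The tested genes whose log2(FPKM + 1) profile over the 12 libraries was most like each gene differed between the 4. Libraries of a strain are close to each other, so these Pearson correlations mostly compare 4 strain means and are given as a description. They include the DlaeA and WT libraries of the contrast behind the choice of genes, so they are not independent of it. For PDE_09491 they were PDE_00533, without a description (r = 0.99), the translation initiation factor 2 subunit gene PDE_05126 (0.99), the 3-isopropylmalate dehydratase gene PDE_03102 (0.98), PDE_09605 (0.98) and the acetoacetyl-CoA synthetase gene PDE_00766 (0.98). PDE_03102, an enzyme of leucine synthesis, was at 16.2 ± 4.86, 56.6 ± 5.24, 15.2 ± 0.58 and 110.5 ± 8.97 in WT, DlaeA, H2BK123A and H2BK131A. For PDE_09492 they were the salicylate hydroxylase gene PDE_01068 (0.99), the chitinase gene PDE_04326 (0.99), the polyketide synthase gene PDE_03455 (0.98), PDE_04325 (0.98) and PDE_01074 (0.98).

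For PDE_09453 the most similar gene was the BrlA gene PDE_00087 (r = 0.99), followed by PDE_01951 (0.99), the scytalone dehydratase gene PDE_04496 (0.99), PDE_10007 (0.99) and PDE_07838 (0.99). Scytalone dehydratase acts in the dihydroxynaphthalene pathway of melanin, and PDE_04496 was at 552.5 ± 99.99 in DlaeA, 11.7 ± 8.62 in WT, 10.003 ± 1.98 in H2BK123A and 0.900 ± 0.35 in H2BK131A. For PDE_07612 they were the nitrilase gene PDE_06051 (r = 0.997), PDE_00637 (0.99), the sugar:H+ symporter gene PDE_03140 (0.99), PDE_08039 (0.99) and PDE_05373 (0.99). Between the adjacent genes PDE_09491 and PDE_09492 r was 0.67, and 1547 other tested genes had a higher r with PDE_09492. Between PDE_09453 and PDE_07612 r was -0.78. Correlations between members also rest on the DlaeA and WT libraries behind their choice, so nothing is read from them.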

How the data were processed

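Per the labels' protocols, short tags were released by NlaIII and MmeI from bead-bound cDNA primed with oligo(dT). The deposited table holds 1 FPKM value per gene and library, made by the authors, per the file headers. Not given in the sources used here are the aligner, counting tool, gene models and genome build. Whether strand was used, and how reads shared by similar genes were assigned, is not given either, so values of similar multicopper oxidases are uncertain to that extent. No counts are in the table and absolute depth is unknown. Low values were close to whole multiples of a step (82% of 763 values of 85 low genes within 0.1 read, with the step set from the same values). The worth of a read came out at factors of 0.987 to 1.02 between libraries. Only values close to a gene's lowest entered these factors, which holds them near 1, so they do not measure how far libraries differ.

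All 12 libraries entered a limma fit (version 3.58.1, R 4.3.3) of log2(FPKM + 1) with strain as the only term, the trend option, 8 residual degrees of freedom and two-sided p-values. The fit held 9431 genes, those reaching an FPKM of 1 in 3 or more libraries, and all 4 members passed. The Benjamini-Hochberg adjustment covered all tested genes of a comparison, and "called" means an adjusted p below 0.05. Differences are on the log2(FPKM + 1) scale, which understates changes of low genes. H2BK123A and H2BK131A were compared with WT and with each other. The comparisons with WT share its libraries.

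The members and lists were chosen with earlier results of these data known. The 7 lists came from a search of the deposited descriptions, leaving out genes with several KEGG names. The text names multicopper oxidase and backbone genes with a mean FPKM of at least 50 in a strain or a called 2-fold difference between the H2B mutants. It also names neighbours within 10 locus numbers called at 2-fold, the 3 most abundant genes of other lists and the 5 most similar genes of each member. Of the neighbours that moved with the member by less, only some are named. PDE_00498, PDE_00453, PDE_06090, PDE_04073, PDE_07605, PDE_09490, PDE_09493, PDE_00079 and the tyrosinases were named beside these rules. PDE identifiers matched 0 entries of the RefSeq gene table at hand, and no coordinates or sequences are given. Alternatives were other pseudocounts, filters and scalings, 2 strains alone, a replicate block, other spread models, DlaeA 2 and DlaeA 3 averaged, and each library left out.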

Additional observations from a re-analysis of the deposited data

How the results depend on the processing

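Of 276 alternative values for the 12 tested differences of the members, 251 kept their direction and their side of the threshold. All 4 differences between H2BK131A and H2BK123A did so throughout. Leaving out 1 library at a time gave 5.15 to 5.40 for PDE_09491, 1.58 to 1.82 for PDE_09492, -1.24 to -1.05 for PDE_09453 and 1.20 to 1.31 for PDE_07612. Against WT, H2BK131A values then were 4.85 to 5.63 for PDE_09491, 0.39 to 1.46 for PDE_09492, -1.28 to -0.73 for PDE_09453 and 1.67 to 1.77 for PDE_07612. H2BK123A values were -0.43 to 0.35, -1.31 to -0.24, -0.10 to 0.45 and 0.41 to 0.50 in the same order. The differing signs for PDE_09491 (0.077 without WT 2, 0.35 without WT 3, 0.13 without H2BK123A 1) and PDE_09453 (-0.10 without WT 1) were never called.

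The H2BK131A call of PDE_09492 against WT was lost with median ratio (0.83, limma adjusted p = 0.086) and quantile scaling (0.91), with 2 strains alone (0.98, adjusted p = 0.114), with library weights (0.23) and with DlaeA 2 and DlaeA 3 averaged (0.98, adjusted p = 0.0513). In H2BK123A against WT, PDE_09492 was called lower with quantile scaling (-1.02) and library weights (-1.495), PDE_09491 with library weights (-0.54, adjusted p = 0.0411), and PDE_07612 was not called with quantile scaling (0.24). Signs turned, uncalled, for PDE_09491 with a pseudocount of 0.1 (0.081) and for PDE_09453 with median ratio scaling (-0.015) and library weights (-0.22). For DlaeA against WT, values moved by more than 1 SD for PDE_09491 (3.03) and PDE_07612 (-0.16) with a pseudocount of 5, and for PDE_07612 with median ratio (-0.50) and quantile scaling (-0.39). The cause was not tested.

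Same-numbered libraries showed little common deviation (correlations of -0.224 to 0.211, 3 of 18 over 0.1, and 4 of 12 libraries closest to their own number). The main fit therefore did not pair them by number. With 3 libraries per strain these values cannot show that a pairing is absent. With the replicate block 44.5% of genes were called in H2BK123A against WT, 69.6% in H2BK131A against WT and 67.4% between the H2B mutants, and no call of a member changed. No total of called genes moved by over 1.5 times under the alternatives run, but lower calls in H2BK123A against WT numbered 1239, then 2235 under median ratio and 2105 under quantile scaling. Median ratio scaling moved the median of all genes from 0.18 to -0.02 for H2BK123A and from 0.13 to -0.03 for H2BK131A against WT, and in the former, 71.8% of calls were upward before and 49.5% after. Absolute depth is unknown, so counting error at low FPKM could not be set.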

Other observations

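Tyrosinases, copper enzymes that oxidise phenols in another route to dark pigment, were not described above. All 3 genes so described rose in H2BK131A against H2BK123A, where 32.9% of all tested genes were called higher. PDE_04614 went from 4.62 ± 1.07 to 23.0 ± 2.27 FPKM (SD, n = 3), a log2 difference of 2.11 ± 0.21 (limma, adjusted p = 4.09e-06). PDE_03554 (1.70 ± 0.21, adjusted p = 2.17e-05) and PDE_04505 (1.57 ± 0.27, adjusted p = 0.000305) rose as well. Across strains they did not share an order, since PDE_03554 was at 33.6 ± 9.66 in WT and 13.4 ± 2.37 in DlaeA, whereas PDE_04614 was at 1.62 ± 0.78 and 15.9 ± 0.90. The other 3 genes of the conidial pigment list were grouped by description alone. They are the scytalone dehydratases PDE_09236 and PDE_04496 and the tetrahydroxynaphthalene reductase PDE_09239. In H2BK131A against H2BK123A they fell, by 8.97, 2.53 and 7.2 on the log2 scale, where 35.8% of all tested genes fell. In DlaeA they parted. PDE_09236 and PDE_09239 averaged 1.13 and 1.02 there against 2908 ± 2160 and 1908 ± 1327 in WT. PDE_04496 averaged 552.5 ± 99.99 in DlaeA against 11.7 ± 8.62 in WT.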
